A study of Homo sapiens with 4 samples.

Results

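The miRNAs described here are hsa-miR-10a-5p, hsa-miR-10a-3p, hsa-miR-10b-5p, hsa-miR-10b-3p, hsa-miR-196a-5p, hsa-miR-196b-5p and hsa-miR-196b-3p, which are made from hairpins within the human HOX gene clusters (the prefix hsa, for human, is left out from here on). They were taken by name, as 7 of the 1644 miRNA names in a table of small RNA reads, where they fill 164 of 12689 isoform entries. The cells were HCT116, an established human colorectal carcinoma line. The cells of 1 group received the empty pcDNA3 plasmid, and those of the other groups received mixtures of pcDNA3 plasmids that carry pri-miRNAs, either wild-type or in sets of variants named mutant 1 and mutant 2. The study examined how mismatches and wobble pairs in the stem of a pri-miRNA bear on its cleavage by DROSHA. The deposited plasmid sequences cover pri-let-7d, pri-mir-16-1, pri-mir-30a, pri-mir-30d, pri-mir-128-1, pri-mir-142, pri-mir-182, pri-mir-200b, pri-mir-342, pri-mir-576 and pri-mir-885. The labels do not give the composition of each mixture, which the paper lists in its supplement, and that list was not used here. None of the deposited plasmid sequences is a miR-10 or miR-196 hairpin, so the 7 miRNAs were treated as endogenous in all 4 libraries. Each condition had 1 library and no replicate, so every difference is between single libraries and was not tested.

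HOX genes encode transcription factors that pattern the body axis, and their order along each cluster follows the order in which they are expressed. The miR-10 and miR-196 hairpins lie among these genes, and their mature miRNAs are known to repress several HOX mRNAs. DROSHA sets the start of the miRNA on the 5p arm of a hairpin and DICER that of the miRNA on the 3p arm. One arm, the guide, is mostly kept by Argonaute while the other, the passenger, is mostly degraded. The start fixes the seed, bases 2 to 8, by which a miRNA pairs with its targets, so a read that starts 1 nt away carries another seed.

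Mature sequences were taken from RefSeq (GRCh38.p14), in a copy that held 6 of the 7 names and lacked miR-10b-5p. Those the results below turn on are written with the seed in capitals and grouped by shared seed for the 5p miRNAs, to set the miR-10 and miR-196 seeds beside those of miR-100-5p and miR-99b-5p, relatives of miR-10 encoded outside the HOX clusters. The 3p sequences follow because the arms and the miR-196a loci are compared through them.
miR-10a-5p: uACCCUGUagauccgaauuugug
miR-100-5p: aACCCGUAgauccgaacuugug
miR-99b-5p: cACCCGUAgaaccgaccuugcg
miR-196a-5p: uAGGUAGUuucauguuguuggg
miR-196b-5p: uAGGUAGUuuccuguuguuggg
miR-10a-3p: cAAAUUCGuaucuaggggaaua
miR-196b-3p: uCGACAGCacgacacugccuuc
miR-196a-1-3p: cAACAACAuuaaaccacccga
miR-196a-3p: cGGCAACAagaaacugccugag
miR-196a-5p and miR-196b-5p share their seed and differ by A12C, counted from 1 at the 5′ end of miR-196a-5p. Among the 1460 names in the table with a RefSeq sequence, no further miRNA had that seed.

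In GRCh38, with the GENCODE release 44 annotation, MIR10A lies on the minus strand at chr17:48579838-48579947, in an intron of all 6 HOXB3 transcripts that span it and 1488 bp from HOXB4. An exon of a lncRNA on the same strand also overlaps it. MIR196A1, in the same HOXB cluster, lies on the minus strand at chr17:48632490-48632559, in an intron of HOXB7 and 6132 bp from HOXB9. The other miR-196a hairpin, MIR196A2, lies on the plus strand of the HOXC cluster at chr12:53991738-53991847, in an intron of HOXC6 and 1459 bp from HOXC10. MIR196B lies on the minus strand of the HOXA cluster at chr7:27169480-27169563, 1042 bp from HOXA10. Of the 3 HOXA9 transcripts that span MIR196B, 2 hold it in an intron and 1 has an exon that overlaps it. MIR10B lies in the HOXD cluster on chromosome 2, in an intron of HOXD3.

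The libraries held 14544516 (empty vector), 17364117 (wild-type), 19834361 (mutant 1) and 17136599 (mutant 2) miRNA reads, and values below keep this order. As the plasmids encode miRNAs of their own, levels are given as reads per 1000000 reads (RPM) of the 1608 untransfected miRNA names, those that no pri-miRNA of the deposited plasmid sequences encodes. Untransfected miRNAs held 92.0%, 70.5%, 70.7% and 88.3% of all miRNA reads. Levels carry exact Poisson 95% intervals, shares carry Wilson 95% intervals, and log2 ratios carry 95% intervals from the normal approximation. Counting error is all that these intervals cover, and without molecular identifiers reads are not independent molecules.

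Epithelial markers were abundant in each library. miR-200c-3p, miR-141-3p and miR-429 summed to 21462, 22940, 20817 and 21473 RPM, with miR-141-3p the most abundant of them throughout. The colon epithelial markers miR-192-5p, miR-194-5p and miR-215-5p summed to 3069, 2501, 1849 and 2451 RPM, most of it miR-192-5p, while miR-194-5p had 31.8, 33.7, 33.5 and 34.4. The muscle markers miR-1-3p, miR-133a-3p and miR-206 and the neuronal miR-124-3p had 0 reads, which allows up to 3 reads each in a library, and the neuronal miR-9-5p had 7 to 10 reads. The liver marker miR-122-5p reached 1.23 RPM at most, the myeloid miR-223-3p 1.85 RPM, and the erythroid miR-486-5p and miR-451a 14.5 RPM together. The endothelial miR-126-3p stood at 238 to 286 RPM. The mesenchymal markers summed to 319, 366, 461 and 375 RPM but went opposite ways, as miR-143-3p had 229, 186, 125 and 164 RPM and miR-145-5p had 90.7, 180, 336 and 212. On this scale miR-145-5p was highest with mutant 1, and miR-143-3p, miR-192-5p and miR-215-5p were lowest there, unlike miR-194-5p. The part of these markers in the results that follow was not tested.

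miR-10a-5p, the guide of MIR10A, had 74079 RPM (73933 to 74225) with the empty vector, 73466 (73314 to 73618) with wild-type, 115617 (115439 to 115795) with mutant 1 and 82397 (82253 to 82542) with mutant 2. In every library it was the third most abundant of the 1608 untransfected miRNAs, next below miR-191-5p in the order of mean levels. miR-10b-5p, the guide of MIR10B, held the following rank with 40834 RPM (40726 to 40942), 35213 (35108 to 35318), 64824 (64691 to 64957) and 45551 (45444 to 45659). For both guides the 4 intervals stood apart, with mutant 1 highest and wild-type lowest, except that, divided by the reads of miR-16-5p, both were highest with the empty vector and miR-10a-5p was lowest with mutant 2. miR-10a-5p had 1.81, 2.09, 1.78 and 1.81 times the reads of miR-10b-5p, a ratio within each library that was highest with wild-type. miR-100-5p was the next miRNA below miR-10b-5p by mean level.

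The miR-196 guides were far less abundant, and miR-10a-5p had 103, 79.1, 105 and 91.2 times the reads of miR-196b-5p. miR-196b-5p, the guide of MIR196B, had 720 RPM (706 to 735), 929 (912 to 946), 1104 (1086 to 1121) and 904 (889 to 919). miR-196a-5p, the guide of MIR196A1 and MIR196A2, had 318 RPM (308 to 327), 371 (360 to 382), 518 (506 to 530) and 388 (378 to 398). For both, the empty vector was lowest and mutant 1 highest, and the intervals of wild-type and mutant 2 overlapped. That order depended on the scale: among all miRNA reads wild-type was lowest for both, and miR-196b-5p was highest with mutant 2 (0.0798%, against 0.0781% with mutant 1). Divided by miR-16-5p, both were highest with the empty vector. By mean level miR-196b-5p lay between miR-532-5p and miR-375-3p, and miR-196a-5p between miR-149-5p and miR-877-5p.

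The passengers on the 3p arms were rare. miR-10a-3p had 35.6 RPM (477 reads), 35.8 (438), 27.8 (390) and 32.2 (488), between miR-942-5p and miR-4787-3p by mean level. miR-196b-3p had 5.83 RPM (78 reads), 8.99 (110), 6.70 (94) and 6.61 (100), between miR-1292-5p and miR-4671-3p. miR-10b-3p had 4.78 RPM (64 reads), 4.66 (57), 3.35 (47) and 4.82 (73), between miR-548v and miR-7976. None of these 3 was highest with mutant 1 on any of the 5 scales used. The 4 intervals of miR-10b-3p all overlapped, whereas for miR-196b-3p the interval of wild-type (7.39 to 10.8) lay above that of the empty vector (4.61 to 7.28). The 7 miRNAs together made up 11.6%, 11.0%, 18.2% and 12.9% of the untransfected reads, and miR-10a-5p with miR-10b-5p supplied 98.8 to 99.1% of that.

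The 4 HOX clusters held 8 annotated miRNA genes, and the 3 besides those of miR-10 and miR-196 were MIR615, MIR3185 and MIR7704. miR-615-3p, from the HOXC cluster, had 65.3, 76.9, 54.7 and 62.7 RPM. miR-615-5p had 16, 19, 6 and 10 reads, miR-3185 had 1 read with mutant 1, and miR-7704 was not among the names in the table.

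Ratios to the empty vector asked how the levels of these endogenous miRNAs stood beside each plasmid mixture. The 3 comparisons share the empty vector library, so its own deviation enters each of them. With mutant 1 the log2 ratio was 0.64 for miR-10a-5p (0.64 to 0.65), 0.67 for miR-10b-5p (0.66 to 0.67), 0.70 for miR-196a-5p (0.65 to 0.76) and 0.62 for miR-196b-5p (0.58 to 0.65). All 4 guides were thus higher than with the empty vector, on every scale but that of miR-16-5p, where all 4 were lower. Among the passengers, miR-10a-3p at -0.36 (-0.55 to -0.17) and miR-10b-3p at -0.51 (-1.06 to 0.030) had intervals below those of their guides, while that of miR-196b-3p, at 0.20 (-0.23 to 0.63), overlapped the interval of miR-196b-5p. None of the 7 passed 2-fold in either direction, against 3.99% of 476 untransfected miRNAs whose reads averaged 50 or more over the libraries. Past 1.5-fold, 4 of the 7 were higher, against 8.82% of the 476, and 0 were lower, against 12.4%. Those 1.5-fold counts were the same with edgeR's TMM factors, against 9.03% higher and 12.2% lower. They were also the same with DESeq2's size factors, against 10.1% and 10.7%. Among all miRNA reads, however, 0 of the 7 were higher, against 2.52%, and 2, miR-10a-3p and miR-10b-3p, were lower, against 36.1%. Divided by miR-16-5p, 0 were higher and all 3 passengers were lower, against 87.0%. The median log2 ratio was 0.62 over the 7 and -0.018 over the 476, whose quartiles were -0.37 and 0.25.

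Scales other than untransfected reads shifted every ratio by the same amount. Among all miRNA reads the guides remained higher with mutant 1, at 0.24 to 0.33, and miR-196b-3p turned to -0.18, while the median of the 476 moved to -0.40. With TMM and DESeq2 each of the 7 kept its direction. Divided by miR-16-5p, the scale of the study, all 7 were lower and the median of the 476 moved to -1.07. pri-mir-16-1 is among the transfected pri-miRNAs, and miR-16-5p had 16944 RPM with the empty vector and 34753, 35128 and 41556 in the other libraries. The difference between the median of the 7 and that of the 476, which no scale alters, was 0.63 with mutant 1.

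With wild-type the 7 miRNAs spread to both sides of the empty vector. miR-196b-5p stood at 0.37 (0.33 to 0.41), miR-196a-5p at 0.22 (0.16 to 0.29) and miR-196b-3p at 0.62 (0.21 to 1.04). These 3 were also positive with TMM and DESeq2 and negative when divided by miR-16-5p, and among all miRNA reads miR-196b-3p alone of the 3 stayed positive. miR-10b-5p was lower on all 5 scales, at -0.21 (-0.22 to -0.21). On untransfected reads miR-10a-5p (-0.012), miR-10b-3p (-0.039) and miR-10a-3p (0.0053) were close to 0. miR-10a-5p and miR-10b-3p were negative on all 5 scales, at -1.05 and -1.08 when divided by miR-16-5p. miR-10a-3p was negative on the other 4. None of the 7 passed 2-fold, against 1.89% of the 476. Past 1.5-fold, 1 of the 7, miR-196b-3p, was higher, against 9.24%, and 0 were lower, against 1.68%. That call was lost on each of the other 4 scales, at 0.52 with TMM, 0.50 with DESeq2, 0.24 among all miRNA reads and -0.41 when divided by miR-16-5p. With TMM and DESeq2, 5.88% and 5.67% of the 476 were past 1.5-fold higher, and 2.73% lower with each. Among all miRNA reads miR-10b-5p, at -0.60, was past 1.5-fold lower, against 14.5% of the 476, and divided by miR-16-5p the 6 besides miR-196b-3p were, against 85.3%. The median of the 7, 0.0053, lay below the median of the 476, 0.088.

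With mutant 2 the guides stood at 0.15 for miR-10a-5p (0.15 to 0.16), 0.16 for miR-10b-5p (0.15 to 0.16), 0.29 for miR-196a-5p (0.23 to 0.35) and 0.33 for miR-196b-5p (0.29 to 0.36). These 4 were positive on every scale but that of miR-16-5p, where they were negative. The intervals of the passengers all spanned 0, at -0.14 for miR-10a-3p (-0.33 to 0.037), 0.012 for miR-10b-3p (-0.47 to 0.50) and 0.18 for miR-196b-3p (-0.25 to 0.61), and miR-10b-3p was negative on the other 4 scales. None of the 7 passed 2-fold, against 1.68% of the 476, and past 1.5-fold 0 were higher, against 7.35%, and 0 lower, against 2.1%. The 1.5-fold counts of the 7 were the same among all miRNA reads and with TMM and DESeq2, against 6.30% to 6.51% higher and 2.94% lower. Divided by miR-16-5p, all 7 were lower, against 95.8%. The median of the 7 was 0.16 and that of the 476 was 0.058.

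The relatives of miR-10 outside the HOX clusters gave other values. miR-100-5p had 38780, 34861, 29415 and 34033 RPM, and a log2 ratio of -0.40 with mutant 1 (-0.40 to -0.39). miR-99b-5p had 9216, 8657, 7893 and 8855 RPM, and a log2 ratio of -0.22 with mutant 1 (-0.24 to -0.21). Both were below the empty vector with each mixture on all 5 scales, opposite to the miR-10 guides with mutant 1 except on the miR-16-5p scale. miR-99a-5p had 45, 44, 41 and 43 reads, too few to resolve a difference with mutant 1 (-0.81 to 0.41).

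The closest profiles over the 4 libraries were found by the root mean square difference of log2 levels, each centred on its own mean, among 474 other untransfected miRNAs. For miR-10a-5p they were miR-4517 (0.022), miR-548s (0.054) and miR-454-3p (0.062), and for miR-10b-5p they were miR-221-5p (0.030), miR-10a-5p (0.092) and miR-1272 (0.10). For miR-196a-5p they were miR-15b-5p (0.028), miR-193b-5p (0.052) and miR-362-5p (0.058), and for miR-196b-5p miR-219a-5p (0.019), miR-219b-3p (0.025) and miR-135b-5p (0.034). Apart from miR-10a-5p beside miR-10b-5p, no miRNA of a HOX cluster was among these. Closest to the passengers were miR-28-5p, miR-25-3p and miR-375-3p for miR-10a-3p, miR-489-3p, miR-340-5p and miR-766-3p for miR-10b-3p, and miR-301a-5p, miR-548j-5p and miR-320b for miR-196b-3p.

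The balance of the arms compares reads within a library, so it does not depend on the scale. MIR10A gave 2078, 2053, 4158 and 2555 reads of the 5p arm for each 3p read, and MIR10B gave 8538, 7563, 19347 and 9444. The 3p share of MIR10A was 0.048% (0.044 to 0.053), 0.049% (0.044 to 0.053), 0.024% (0.022 to 0.027) and 0.039% (0.036 to 0.043). For both hairpins the share was lowest with mutant 1, where its interval met none of the other 3. With the empty vector MIR10B had the highest ratio of major to minor arm among the untransfected pairs with a mean of at least 50 reads for each arm, and MIR10A had the third highest.

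The 3p share of MIR196B was 0.803% (0.644 to 1.00), 0.958% (0.796 to 1.154), 0.604% (0.493 to 0.738) and 0.726% (0.597 to 0.882). It too was lowest with mutant 1, but there its interval overlapped those of the empty vector and mutant 2. MIR196A1 and MIR196A2 were counted together, since both encode miR-196a-5p, and their 3p share was 3.17% (2.69 to 3.73), 3.83% (3.32 to 4.42), 1.49% (1.24 to 1.80) and 3.07% (2.67 to 3.54). The interval of mutant 1 again met none of the others. From the empty vector to mutant 1 the log2 ratio of major to minor arm was higher by 1.18 for miR-10b, 1.00 for miR-10a and 0.41 for miR-196b, at ranks 5, 11 and 32 among the pairs. Counting error leaves 0.64 to 1.72 for miR-10b, 0.81 to 1.19 for miR-10a and -0.020 to 0.85 for miR-196b. From reads at the annotated start of each arm alone, the difference was 0.37 for miR-10b (-1.05 to 1.80), on 7 and 9 reads of miR-10b-3p, so it was not resolved there, and 0.93 for miR-10a (0.708 to 1.149). On such reads MIR10B also stood below the empty vector with mutant 2, at -1.44 (-2.65 to -0.23), on 24 reads of miR-10b-3p against 7. All reads gave 0.15 there (-0.34 to 0.63). With wild-type MIR10B stood at -1.24 (-2.57 to 0.084), on 13 reads against 7. MIR196A1 and MIR196A2 together stood at -0.49 (-0.90 to -0.071) with wild-type on such reads, where all reads gave -0.28 (-0.61 to 0.040). From the empty vector to mutant 1, the median change over the pairs ranked above was -0.13, and 55 of them, or 44.4%, were higher.

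The passengers of miR-196a have names of their own, which tell the loci apart. miR-196a-1-3p, from MIR196A1, had 120, 162, 96 and 174 reads, and miR-196a-3p, from MIR196A2, had 19, 19, 14 and 12. MIR196A1 thus gave 86.3% (79.6 to 91.1), 89.5% (84.2 to 93.2), 87.3% (79.8 to 92.3) and 93.5% (89.1 to 96.3) of these passenger reads, with intervals that all overlapped. The share of each locus in miR-196a-5p was not measured. All 64 reads of miR-196a-3p started 1 nt upstream of the annotated base, as did 33.3%, 27.2%, 40.6% and 32.8% of the miR-196a-1-3p reads.

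Starts of the guides differed more between hairpins than between libraries. miR-10a-5p began at the annotated base in 79.3% (79.2 to 79.4), 78.7% (78.6 to 78.8), 80.1% (80.0 to 80.1) and 79.7% (79.6 to 79.8) of its reads, and 1 nt downstream in 19.7%, 20.3%, 19.0% and 19.3%. The downstream start carries the seed CCCUGUA in place of ACCCUGU. miR-10b-5p began 1 nt downstream in 11.4%, 11.9%, 11.4% and 11.3% of its reads. A start 1 nt upstream set the pair apart, as it made up 0.724%, 0.698%, 0.715% and 0.722% of the miR-10a-5p reads but 21, 6, 15 and 8 reads of miR-10b-5p, at most 0.0038%.

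miR-196a-5p and miR-196b-5p, with the same seed, differed in the share of reads at the downstream start. miR-196a-5p pools reads of MIR196A1 and MIR196A2, and how such reads entered the counts was not tested. miR-196a-5p began 1 nt downstream in 7.65% (6.89 to 8.48), 8.98% (8.18 to 9.85), 7.30% (6.72 to 7.92) and 6.12% (5.53 to 6.76) of its reads. miR-196b-5p did so in 0.145% (0.087 to 0.244), 0.194% (0.128 to 0.293), 0.226% (0.163 to 0.314) and 0.124% (0.078 to 0.199). The downstream start carries the seed GGUAGUU, shared with none of the other names compared. Among 165 untransfected miRNAs with at least 1000 reads in each library, the median share at the annotated start was 98.3% in each library. Ranked from the lowest such share with the empty vector, miR-10a-5p was at 26, miR-10b-5p at 31, miR-196a-5p at 38 and miR-196b-5p at 158 of the 165.

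Starts of the passengers rest on few reads. miR-10a-3p began at its annotated base in 74.4%, 79.9%, 79.0% and 79.9% of its reads, and miR-196b-3p in 82.1%, 82.7%, 86.2% and 80.0%. miR-10b-3p did so in 10.9% (5.40 to 20.9), 22.8% (13.8 to 35.2), 19.1% (10.4 to 32.5) and 32.9% (23.2 to 44.3), and most of its reads in each library began 1 or 2 nt downstream.

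At the 3p end, a positive distance from the annotated end is a longer read. miR-10a-5p, annotated at 23 nt, ended 1 nt short in 55.1%, 59.0%, 56.3% and 57.8% of its reads and at the annotated base in 36.0%, 32.1%, 36.1% and 33.8%. Its start and end were linked: with the empty vector 63.1% of reads at the annotated start ended 1 nt short, while 67.6% of those from 1 nt downstream ended at the annotated base. Both kinds are 22 nt long, and reads of 22 nt made up 63.5%, 66.3%, 64.6% and 65.3% of miR-10a-5p. miR-10b-5p ended 1 nt short in 76.1%, 77.9%, 76.1% and 78.0% of its reads. The isoform with both annotated ends was a minority, at 19.0 to 22.9% of miR-10a-5p and 9.78 to 11.8% of miR-10b-5p over the 4 libraries.

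miR-196b-5p, annotated at 22 nt, ended at the annotated base in 56.3%, 60.2%, 56.9% and 58.0% of its reads and 1 nt beyond it in 24.8%, 22.7%, 25.7% and 23.8%. From the empty vector to mutant 1 its mean end moved 0.058 nt downstream, beside 0.022 nt for miR-10b-5p, 0.021 nt for miR-10a-5p and -0.0077 nt for miR-196a-5p. Of the 165 miRNAs, 87.3% moved downstream there, by a median of 0.055 nt over all 165. With wild-type all 4 guides moved upstream, with shifts of -0.042 nt for miR-10a-5p, -0.021 nt for miR-10b-5p, -0.012 nt for miR-196b-5p and -0.0075 nt for miR-196a-5p. Of these, miR-196a-5p alone had also moved upstream with mutant 1. Of the 165 miRNAs, 57.0% moved downstream with wild-type. With mutant 2 the shift was -0.014 nt for miR-10a-5p, -0.0091 nt for miR-10b-5p, -0.012 nt for miR-196a-5p and 0.012 nt for miR-196b-5p, and 77.6% of the 165 moved downstream.

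The ends of miR-196a-5p were unlike those of the other guides. From its annotated start, reads that ended at the annotated base and 1 nt beyond numbered 1928 and 1895 with the empty vector, 2039 and 2010 with wild-type, 3325 and 3235 with mutant 1, and 2721 and 2690 with mutant 2. Of miR-196a-5p reads from any start, 0.028% ended short of the annotated base with mutant 1, and none of these began at the annotated start. Reads that ended short of the annotated base were not seen in the other libraries, where the intervals allow up to 0.090%, 0.084% and 0.065%. The 22-nt mature sequence matches GRCh38 at 2 places, MIR196A1 and MIR196A2, which differ by C23A counted from the miR-196a-5p start, so that a templated 23-nt read matches 1 place. Of 13 untransfected miRNAs with more than 1 locus and 1000 or more reads in all, 5 had neighbouring most frequent ends with counts within 10% of each other, as did 8 of 245 such miRNAs with 1 locus. miR-196a-5p, which prompted this count, is among the 13 and the 5, and without it 4 of 12 did. How reads with several loci entered the counts was not tested. The 3p share of MIR196A1 and MIR196A2, which has miR-196a-5p reads as denominator, is therefore uncertain, as are the level, starts and ends of miR-196a-5p. Its log2 ratios to the empty vector from reads that end at the annotated base alone, an alternative chosen after seeing the data, were 0.23, 0.71 and 0.30 with wild-type, mutant 1 and mutant 2.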

How the data were processed

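For each condition, 1 TruSeq library of small RNA was prepared from HCT116 cells after transfection. The authors trimmed adapters with cutadapt, kept reads of 18 to 26 nt, filtered on quality, mapped to hg38 with Bowtie2 and assigned unambiguous reads, with mismatches only at the 3p end, to miRBase loci. The deposited values are raw counts per isoform, without normalization. The read ends were deposited as offsets whose sign was settled from the data: in 10587 isoforms of miRNAs with 1 locus, only a positive start offset as downstream and a positive end offset as upstream gave lengths of 18 to 26 nt in 100% of them. Reads were summed over isoforms and scaled to untransfected miRNA reads. With 1 library per condition, a miRNA was called when past 2-fold, and no test was made. Scaling alternatives were all miRNA reads, miR-16-5p, edgeR 4.0.16 (TMM) and DESeq2 1.42.0 in R 4.3.3. Other steps used Python 3.11.15, pandas 2.3.3, numpy 2.4.6, scipy 1.17.1 and matplotlib 3.10.9. The fold rule and the Wilson intervals were tested on simulated data that held counting error only, without differences between transfections. Genome matches are exact, on both strands of the primary chromosomes. Named besides the 7 miRNAs are their hairpin partners, other HOX cluster miRNAs, miR-99 and miR-100 relatives, miR-16-5p, the 3 closest profiles, neighbours by level, and cell type markers. The miRNAs and lists were chosen with earlier results of these data known.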

Additional observations from a re-analysis of the deposited data

How the results depend on the processing

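The median log2 ratio of the 7 miRNAs to the empty vector moved with the scale, as any scale shifts all miRNAs by 1 amount. Among all miRNA reads it was -0.38 for wild-type, 0.24 for mutant 1 and 0.099 for mutant 2, and divided by miR-16-5p it was -1.03, -0.44 and -1.14. Those scales put the median of the 476 miRNAs at -0.30, -0.40 and -0.0010, and at -0.95, -1.07 and -1.24. With DESeq2 size factors the median of the 7 was -0.12 for wild-type, 0.65 for mutant 1 and 0.098 for mutant 2, and with TMM it was -0.10, 0.63 and 0.11, so for wild-type the sign of the value on untransfected reads, 0.0053, was not kept. Past 2-fold, division by miR-16-5p put 4, 2 and 6 of the 7 lower in the wild-type, mutant 1 and mutant 2 libraries, beside 43.7%, 57.1% and 78.8% of the 476, and the other scales none. At 1.5-fold, 1 of the 7 was higher for wild-type, 4 for mutant 1 and 0 for mutant 2, beside 9.24%, 8.82% and 7.35% of the 476, and 0 were lower. Both choices together were tried after seeing the data, and values keep the order wild-type, mutant 1, mutant 2. Among all miRNA reads 0 of the 7 were higher, beside 1.89%, 2.52% and 6.30% of the 476. There 1, 2 and 0 were lower, beside 14.5%, 36.1% and 2.94%. Divided by miR-16-5p, 0 were higher, beside 0.210% at most, and 6, 3 and 7 lower, beside 85.3%, 87.0% and 95.8%. With TMM 0, 4 and 0 were higher, beside 5.88%, 9.03% and 6.51%, and 0 lower, beside 2.73%, 12.2% and 2.94%. With DESeq2 the counts were the same, beside 5.67%, 10.1% and 6.30% higher and 2.73%, 10.7% and 2.94% lower. The 9, 19 and 8 miRNAs past 2-fold became 64, 83 and 53 with a minimum of 10 reads, 1, 6 and 3 with 200 reads, 228, 263 and 240 with no minimum, and 52, 101 and 45 at 1.5-fold. A pseudocount of 1 read kept all 21 ratios within their intervals, and both limits on read ends kept all 16 shares at the annotated start. Restricting arms to annotated starts moved 9 of 16 3p shares, and the mutant 1 share was lowest for each hairpin there too, though for MIR10B, on 7 to 24 reads of miR-10b-3p, the log2 change of the arm ratio went from 1.18 to 0.37 with mutant 1, from -0.17 to -1.24 with wild-type and from 0.15 to -1.44, the other direction, with mutant 2. For MIR196A1 and MIR196A2 the restriction leaves the passenger of MIR196A1 alone, as no read of miR-196a-3p began at its annotated base. Ends of reads at the annotated start moved 8 of 16 mean offsets, those of miR-10a-5p and miR-10b-5p. By the annotated isoform alone, miR-10b-3p and miR-196b-3p traded places in the order of levels. Depth limits the 3p miRNAs, where 47 to 110 reads of miR-10b-3p or miR-196b-3p leave wide intervals, and no value covers differences between transfections.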
